A study of Homo sapiens with 6 samples.

Results

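The genes described here are 53 members of the DNA replication machinery: the factors that license and fire replication origins, the replicative polymerases and primase, the sliding clamp with its loader, the single-strand binding and Okazaki fragment factors, the enzymes of deoxynucleotide supply, and a few factors of chromatin assembly and fork protection. They were chosen by name and found by Ensembl ID among the 58051 genes counted in each library, and all 53 were present. The cells were A172, a human line established from a glioblastoma. Stable lines were made by transduction with a lentiviral plasmid for RBFOX1, an RNA-binding protein whose motif reads TGCATG in DNA letters, or for GFP as control, with 3 biological replicates of each. Both groups thus share the parental line, the viral vector and the polybrene exposure. The comparison asks which transcripts changed when RBFOX1 was overexpressed.

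Before S phase, the origin recognition complex, CDC6 and CDT1 load the MCM helicase on DNA, which licenses the origin. The DBF4-dependent kinase CDC7, together with CDC45, MCM10 and the GINS complex, then turns the loaded helicase into an active fork, at which primase and the polymerases copy both strands and the clamp PCNA, loaded by the RFC complex, tethers them to DNA. Many of these genes are transcribed periodically through E2F factors in late G1 and S phase, and in cultured tumour cells their mRNAs are widely used as a sign of cycling.

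RBFOX1 itself had normalized counts of 2.4, 0 and 1.1 in the GFP libraries and 18639, 18282 and 19588 in the RBFOX1 libraries (log2 fold change 13.55, adjusted p = 2.47e-23, edgeR's quasi-likelihood test). A normalized count is a read count divided by the library's effective size and brought to the mean effective size of the 6 libraries. Between 7433414 and 23249221 read pairs were counted on genes in a library. GFP replicate 1 stood apart from the other GFP libraries, since the chi-square of its counts against theirs, per degree of freedom, was 8.90 and 9.07, where the other pairs of replicates gave 1.66 to 3.01. Values without it are given for each of the 53 genes whose call it decided. The share of read pairs falling on more than 1 gene also differed between the conditions, at 8.89 to 9.35% in GFP and 6.89 to 7.94% in RBFOX1 libraries, and its part in the results was not tested. Of the markers of the line, vimentin (VIM), CD44 and nestin (NES) were abundant while GFAP stayed at 1 to 4 counts and S100B at 0 to 2 counts in every library. Some markers of other cell types were also called higher, as were 23.7% of all genes tested. They were 2 of 5 neuronal genes (NEFL and SYP) and 3 of 5 haematopoietic or endothelial genes (PECAM1, CDH5 and PTPRC). Summed normalized counts of the neuronal list were 3811 to 4144 in GFP against 17170 to 19150 in RBFOX1 libraries. For the other list they were 24.5 to 41.9 against 140.6 to 143.2. The neuronal sum was nearly all NEFL, which went from 3949 to 18160 on average, whereas SYP went from 11.6 to 33.9. SYN1 did not pass the test, RBFOX3 and SNAP25 stayed at 0 to 3 counts and CD3E at 0 in all libraries. CD14 did not pass either, at 6.8 normalized counts on average in GFP and 3.7 in RBFOX1 libraries. Of the 8 mesenchymal and glial genes, 3 were higher (CHI3L1, SOX2 and NES) and 3 lower (VIM, CD44 and OLIG2). The shares of all genes tested were 23.7% higher and 22.9% lower. CHI3L1 went from 6.94 to 737.9 normalized counts on average, SOX2 from 23.45 to 131.6 and NES from 3482 to 5272. VIM went from 59590 to 37910, CD44 from 13770 to 7366 and OLIG2 from 123.1 to 85.55. The sums of this list were 76170 to 77790 in GFP and 51140 to 51970 in RBFOX1 libraries. The part of these shifts in the results on replication genes was not tested.

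Replication genes were broadly higher in RBFOX1-overexpressing cells. Of the 53 genes, 46 rose (86.8%), 2 fell, namely PCNA and RFC1, and 5 did not pass the test, namely ORC2, POLA1, POLD3, RFC5 and DUT (edgeR's quasi-likelihood test, Benjamini-Hochberg adjusted p under 0.05). Over all 20536 genes tested, 23.7% were called higher and 22.9% lower by the same rule. All 53 genes were tested, their mean normalized counts were 50 or more, and among the 12012 genes at or above that level 30.4% were called higher and 33.4% lower. In 46 of the 53 genes all 3 RBFOX1 libraries lay above all 3 GFP libraries, which held for 26.9% of all genes tested. In bulk RNA, a larger fraction of cells in S phase and more RNA per cell cannot be told apart, so these values do not separate the number of replicating cells from the level in each.

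The size of the rise was moderate for most genes. The median log2 fold change of the 53 genes was 0.62, a 1.53-fold rise, beside 0.01 over all genes tested and -0.02 over those with a mean of at least 50. Measured in each RBFOX1 library against the GFP mean, the median was 0.62, 0.70 and 0.60 for replicates 1, 2 and 3. Only 9 genes rose by a log2 fold change of at least 1 (17.0% of the 53, beside 8.23% of all genes tested and 5.87% of those with a mean of at least 50), and in falling order these were RRM2, TK1, DBF4, GINS2, CDC6, RFC3, CDC45, UHRF1 and TIMELESS. Together the 53 genes took 0.233% of the counts in GFP and 0.368% in RBFOX1 libraries. Replicates were close, with a median coefficient of variation of 5.73% in GFP and 5.33% in RBFOX1 cells. Without GFP replicate 1, 47 genes were called higher and 1 lower (PCNA), and the median log2 fold change was 0.61.

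**Figure D1:**
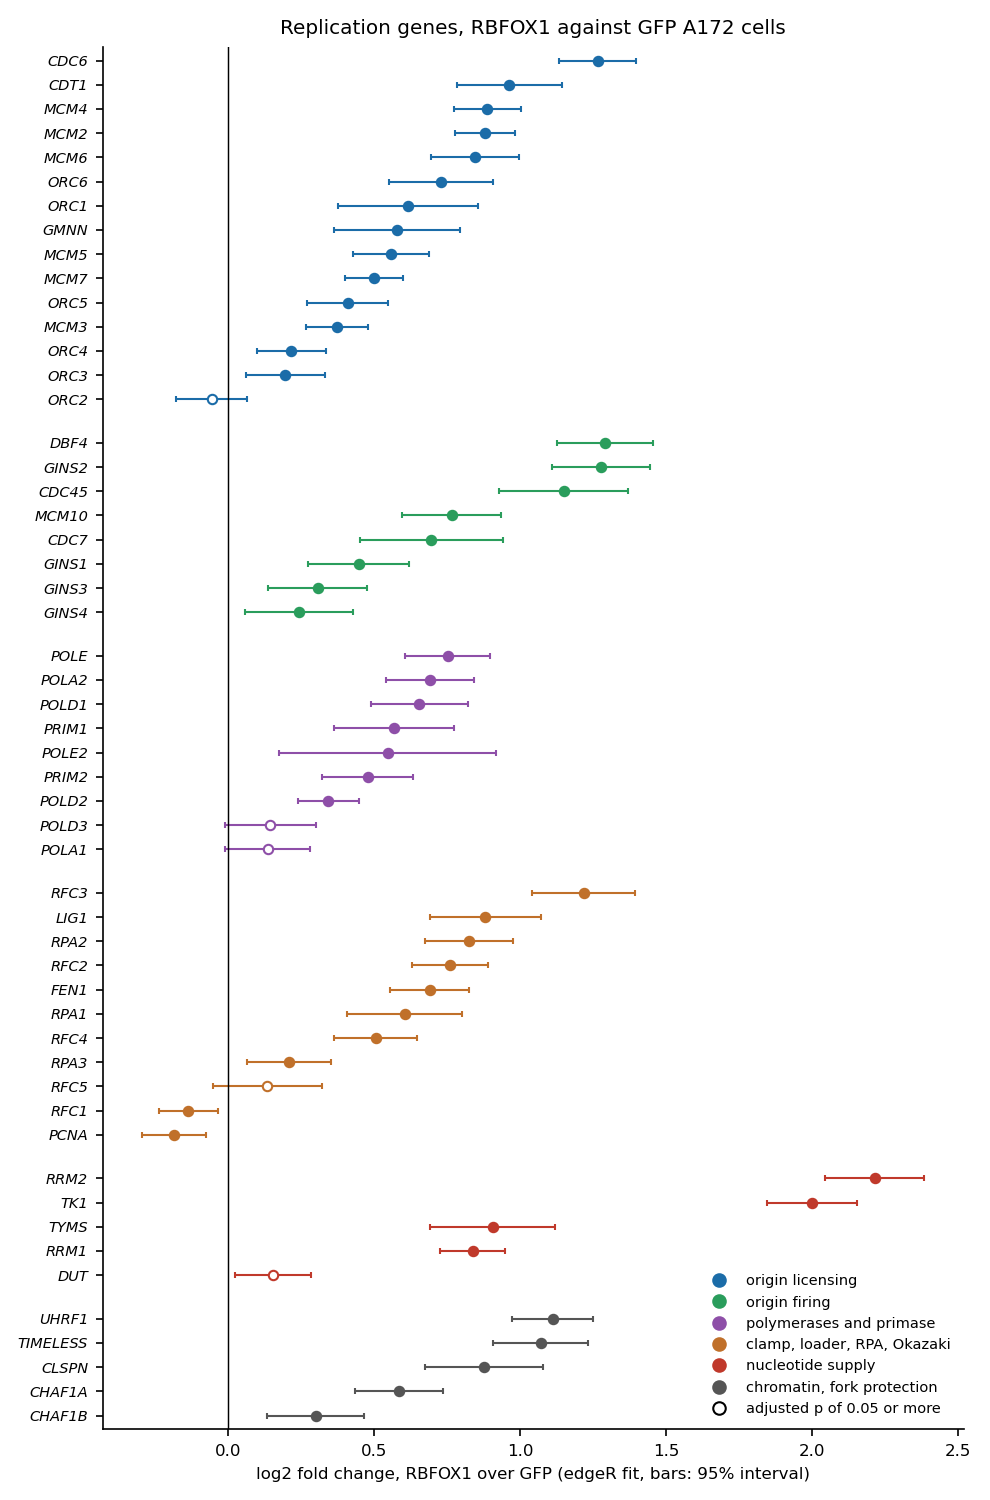
Fitted log2 fold change of each of the 53 replication genes, RBFOX1 over GFP (3 libraries each), grouped by role, with bars for the 95% interval of the edgeR fit and open circles for genes that did not pass an adjusted p of 0.05. RRM2 (2.21) and TK1 (2.001) lie to the right of all others, and PCNA (-0.19) and RFC1 (-0.14) are the only filled points left of 0.

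The promoters of these genes were searched for words of the E2F site, TTTCGCGC and TTTGGCGC, on both strands and with overlaps allowed, since the genes moved together and E2F sites are a well known shared element of replication genes. RefSeq promoters (250 bases before to 50 after the start site, GRCh38.p14) were held for 47 of the 53 genes, all except GINS4, MCM4, MCM5, POLD3, RPA2 and RPA3. An E2F word was present in 10 of the 47 (21.3%), beside 322 of 27305 promoters of all genes (1.18%). Those promoters were not limited to genes tested here, nor matched in base composition or expression. The stretches that hold it follow 5′ to 3′ on the gene's strand, with the bases of the words in capitals.
CDC6 (chr17:40287874-40287903, plus strand): tggccattcggaTTTGGCGCgagcgcggct
GINS1 (chr20:25407666-25407695, plus strand): tagctttgttcgGCGCCAAAgcgcggagcg
MCM2 (chr3:127598403-127598432, plus strand): gtgaaccactTTTCGCGCGAAAcctggttg
MCM3 (chr6:52284729-52284758, minus strand): gagttcggaagtTTTCGCGCcggggtggag
MCM6 (chr2:135876510-135876609, minus strand): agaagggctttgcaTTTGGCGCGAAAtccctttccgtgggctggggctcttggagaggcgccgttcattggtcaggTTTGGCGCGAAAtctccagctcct
MCM7 (chr7:100101389-100101418, minus strand): tggggggcgacgTTTCGCGCcaatttcggt
POLA1 (chrX:24693769-24693798, plus strand): ggtcatcacaggGCGCCAAAcgcgcgtccg
POLA2 (chr11:65261897-65261926, plus strand): gttggctcccggTTTCGCGCatgcgtgcac
POLE (chr12:132687343-132687372, minus strand): ctgggtgggagcGCGCCAAAtttctcccct
POLE2 (chr14:49688202-49688231, minus strand): gctgcggcggtgGCGCCAAAtcgcaaatat
The MCM2 stretch holds a palindrome read as a word on each strand, and the MCM6 stretch holds in 2 places a pair of overlapping words, TTTGGCGC and, on the other strand, TTTCGCGC. Among the 10 genes with a word, 9 rose and POLA1 did not pass the test, and their median log2 fold change was 0.62, whereas it was 0.66 among the 37 genes without a word, of which 32 rose and 2 fell. The promoters of RRM2 and TK1, the genes that rose most, hold neither word. PCNA's does not either. CCAAT, the NF-Y word, stood in 26 of the 47 promoters (55.3%, beside 35.7% of all promoters), and the words TTTGAA and TTCGAA of the cell cycle homology region stood in 3 (6.38%, beside 16.6%). These are matches of letters in a fixed window and not measured sites. A single window was used for each gene, so other start sites, for RRM2 and TK1 as well, were not searched. Only the exact words were counted. Near matches, such as TTTGGCGGG in the promoters of CDT1, CDC45 and MCM10, were therefore scored as without an E2F word. The lack of a word is thus not the lack of an E2F site.

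Licensing genes rose in 14 of 15 cases, with a median log2 fold change of 0.58, and none fell. Over all genes tested, 23.7% were called higher and 22.9% lower, which is the background for this and each later role group. CDC6, the ATPase that joins the origin recognition complex to recruit the helicase, rose most. Its normalized counts were 477, 445 and 456 in GFP and 1116, 1150 and 1063 in RBFOX1 libraries. All RBFOX1 libraries lay at more than 2 times the highest GFP library, and the log2 fold change was 1.27 (standard error 0.0628, adjusted p = 1.57e-12, edgeR). CDC6 lies on chromosome 17 from 40287879 to 40304657 (GRCh38). CDT1, its partner in helicase loading, had 169, 183 and 186 normalized counts in GFP and 368, 343 and 339 in RBFOX1 libraries, again with no overlap (log2 fold change 0.96, standard error 0.0861, adjusted p = 1.17e-08, edgeR). GMNN encodes geminin, which binds and inhibits CDT1, and rose less (183.4 ± 8.55 to 274.4 ± 35.9, SD, n = 3; log2 fold change 0.58).

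All of MCM2 to MCM7, the subunits of the helicase, rose, but not evenly. The log2 fold change was 0.89 for MCM4, 0.88 for MCM2, 0.85 for MCM6, 0.56 for MCM5, 0.50 for MCM7 and 0.37 for MCM3, with standard errors between 0.0474 and 0.0724. MCM2 went from 1387, 1355 and 1398 normalized counts in GFP to 2467, 2579 and 2573 in RBFOX1 libraries, and MCM3 from 1252, 1264 and 1243 to 1631, 1666 and 1574. The libraries of the conditions were well separated for both genes, and the 95% interval of MCM3 (0.27 to 0.48) lay below that of MCM2 (0.78 to 0.98). MCM7, the most abundant of the helicase genes per length of transcript, went from 2100 ± 24.7 to 2966 ± 74.4 (SD, n = 3).

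The origin recognition complex showed the widest contrast within licensing. ORC6 rose by a log2 fold change of 0.73 and ORC1, the large ATPase subunit, by 0.62, followed by ORC5 (0.41), ORC4 (0.22) and ORC3 (0.20). ORC1 had 127, 113 and 144 normalized counts in GFP and 176, 220 and 191 in RBFOX1 libraries. ORC2 had 957, 879 and 940 in GFP and 872, 909 and 891 in RBFOX1 libraries, which overlapped, and its log2 fold change of -0.06 did not pass the test (95% interval -0.18 to 0.07, adjusted p = 0.475, edgeR). ORC3 had 698, 656 and 630 in GFP and 755, 734 and 789 in RBFOX1 libraries, without overlap (adjusted p = 0.0170, edgeR). The call of ORC3 was lost without GFP replicate 2 (adjusted p = 0.0533), GFP replicate 3 (0.0862) or RBFOX1 replicate 3 (0.0887) in the same edgeR test, and under DESeq2 (0.0505).

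**Figure D2:**
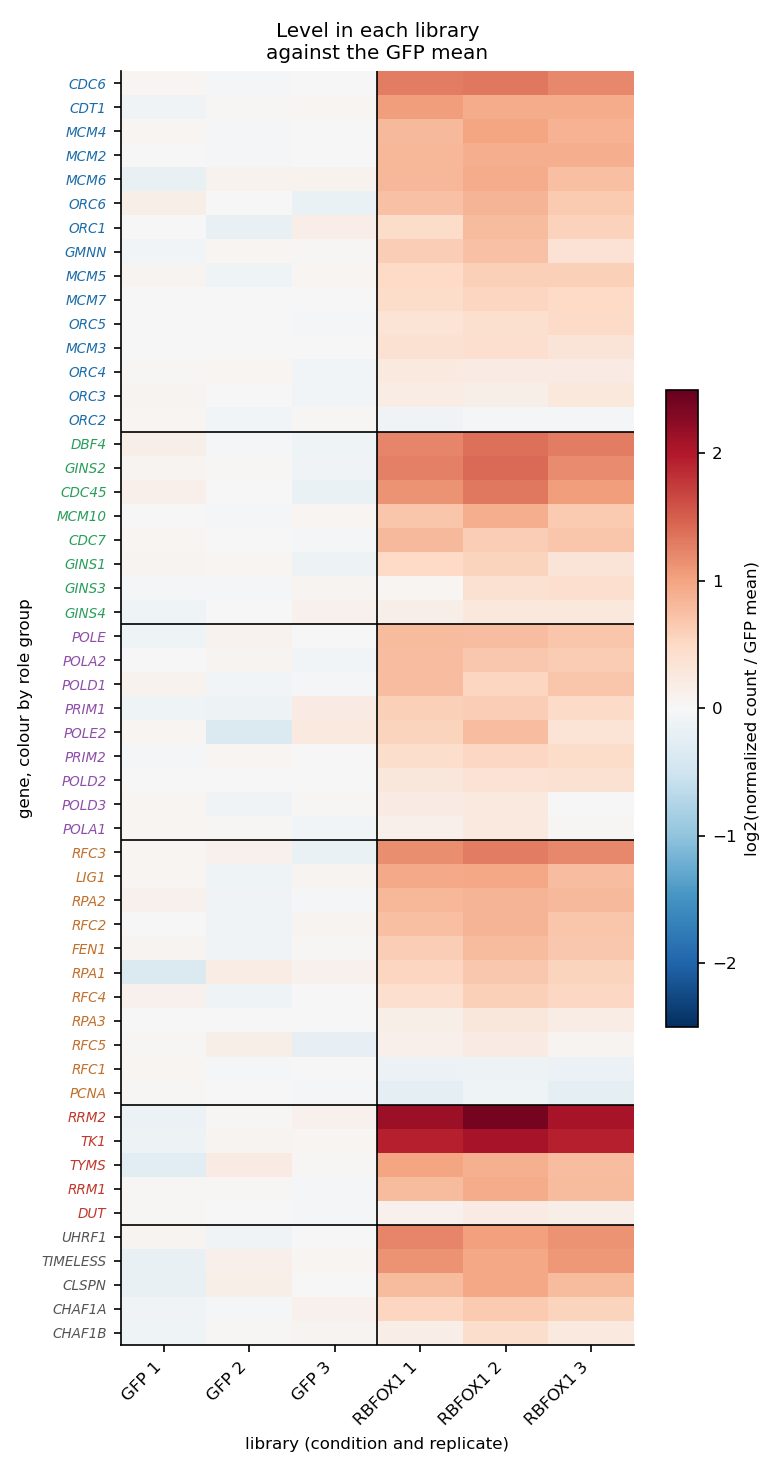
Colours give log2 of the normalized count of each gene in each library over the mean of the 3 GFP libraries, with genes in rows by role group and libraries in columns. The 3 RBFOX1 columns are similar to each other for nearly all genes, and in the GFP columns RPA1 and TYMS are the genes whose replicate 1 lies more than 20% from the mean of the other GFP libraries.

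All 8 firing genes rose, with a median log2 fold change of 0.73. DBF4, the regulatory subunit that activates the CDC7 kinase, had 328, 285 and 276 normalized counts in GFP and 695, 774 and 723 in RBFOX1 libraries. The lowest RBFOX1 library was thus more than 2 times the highest GFP library, and the log2 fold change was 1.29 (standard error 0.0780, adjusted p = 3.21e-11, edgeR). CDC7 itself was low and rose by 0.70, from 86.6 ± 2.49 to 142.1 ± 9.65 (SD, n = 3). CDC45, which completes the active helicase with MCM2 to MCM7 and GINS, went from 138, 127 and 113 to 276, 313 and 260 (log2 fold change 1.15, standard error 0.105, adjusted p = 1.71e-08, edgeR). MCM10, a factor needed to activate the assembled helicase, rose from 296.5 ± 7.90 to 503.1 ± 48.2 (SD, n = 3; log2 fold change 0.77).

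The 4 subunits of GINS, a complex with 1 copy of each, differed in how far they rose. GINS2 had 265, 258 and 238 normalized counts in GFP and 608, 674 and 573 in RBFOX1 libraries (log2 fold change 1.28, standard error 0.0807, adjusted p = 6.40e-11, edgeR). GINS1 rose by 0.45, GINS3 by 0.31 and GINS4 by 0.24. GINS3 had 526, 514 and 560 in GFP and 553, 691 and 711 in RBFOX1 libraries, so that RBFOX1 replicate 1 lay within the GFP range although the gene passed the test (adjusted p = 0.00367, edgeR). GINS4 had 225, 242 and 260 in GFP and 267, 291 and 291 in RBFOX1 libraries (adjusted p = 0.0283, edgeR), without overlap but with a narrow gap. Its call was lost in 7 of the 13 alternatives, among them DESeq2 (adjusted p = 0.132) and, in the edgeR test, the omission of GFP replicate 1 (0.111), GFP replicate 2 (0.0552), RBFOX1 replicate 2 (0.0838) or RBFOX1 replicate 3 (0.0965).

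Of the 9 polymerase and primase genes, 7 rose and 2 did not pass the test, with a median log2 fold change of 0.55 and no gene at or above 1. Only 8.23% of all genes tested were called higher at that size, so its absence among 9 genes is not a mark of this group. POLE, the catalytic subunit of polymerase epsilon, which copies the leading strand, had 408, 464 and 441 normalized counts in GFP and 753, 744 and 708 in RBFOX1 libraries. The groups were far apart, and the log2 fold change was 0.75 (standard error 0.0692, adjusted p = 1.79e-08, edgeR). POLA2, the accessory subunit of polymerase alpha, had 347, 360 and 329 in GFP and 586, 554 and 538 in RBFOX1 libraries (log2 fold change 0.69, adjusted p = 1.06e-07, edgeR). By contrast POLA1, the catalytic subunit of the same polymerase, had 699, 690 and 642 in GFP and 742, 805 and 691 in RBFOX1 libraries, which overlapped (log2 fold change 0.14, 95% interval -0.01 to 0.28, adjusted p = 0.118, edgeR). Its adjusted p was 0.0490 without GFP replicate 1 and 0.0450 without RBFOX1 replicate 3. The primase subunits PRIM1 and PRIM2 rose by 0.57 and 0.48.

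Polymerase delta, which copies the lagging strand, was mixed. Its catalytic subunit POLD1 rose from 314.6 ± 18.6 to 501.0 ± 39.0 (SD, n = 3; log2 fold change 0.66), and POLD2, the most abundant polymerase gene, rose from 1668, 1669 and 1674 normalized counts to 2021, 2145 and 2181 (log2 fold change 0.34). POLD3 had 594, 542 and 582 in GFP and 664, 681 and 572 in RBFOX1 libraries, with RBFOX1 replicate 3 inside the GFP range. Its log2 fold change of 0.15 did not pass the test (95% interval -0.01 to 0.30, adjusted p = 0.121, edgeR), but did without RBFOX1 replicate 3 (0.23, adjusted p = 0.0215). POLE2, a subunit of polymerase epsilon, was the least abundant of the 53 genes by raw level, at 49.8, 37.4 and 56.9 normalized counts in GFP and 70.7, 82.2 and 61.2 in RBFOX1 libraries, and the gap between the groups was small beside their spread (log2 fold change 0.55, standard error 0.177, adjusted p = 0.0154, edgeR). The call of POLE2 was lost without GFP replicate 2 (adjusted p = 0.0663), without RBFOX1 replicate 2 (0.110), with all libraries thinned to the smallest total (0.0751) and under DESeq2 (0.0801).

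Among the 11 genes of the clamp, its loader, single-strand binding and Okazaki maturation, 8 rose, 2 fell and 1 did not pass the test, with a median log2 fold change of 0.61. PCNA, the sliding clamp and a gene often used to mark cycling cells, was lower. It had 1930, 1881 and 1836 normalized counts in GFP and 1603, 1745 and 1616 in RBFOX1 libraries. Every RBFOX1 library lay below every GFP library, but the fall was small, at 12.1% (log2 fold change -0.19, standard error 0.0522, 95% interval -0.29 to -0.08, adjusted p = 0.00611, edgeR). PCNA stayed lower with an adjusted p of 0.00190 to 0.0487 in all 13 alternatives run. Its place among the 12012 genes whose mean was 50 or more, ranked by log2 fold change, was the 34.6th percentile, while RRM2 stood at the 98.9th. PCNA lies on chromosome 20 from 5114953 to 5126626 (GRCh38, minus strand), and its 3 annotated pseudogenes, PCNA copies by name, had 0 counts in all libraries.

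The clamp loader subunits also went in different directions. RFC3 rose from 218, 227 and 188 to 475, 510 and 486 normalized counts (log2 fold change 1.22, standard error 0.0835, adjusted p = 2.27e-10, edgeR), with every RBFOX1 library more than 2 times the highest GFP library. RFC2 rose by 0.76 and RFC4 by 0.51. RFC5 had 321, 348 and 273 in GFP and 343, 361 and 331 in RBFOX1 libraries, which overlapped (log2 fold change 0.13, 95% interval -0.05 to 0.32, adjusted p = 0.241, edgeR). RFC1, the large subunit that is specific to the PCNA loader, had 2218, 2108 and 2123 in GFP and 1950, 1973 and 1951 in RBFOX1 libraries, a fall of 8.90% (log2 fold change -0.14, standard error 0.0485, adjusted p = 0.0267, edgeR). The groups of RFC1 did not overlap, yet its call was lost in 7 of the 13 alternatives, which included DESeq2 and the omission of any library other than GFP replicate 2, with adjusted p-values up to 0.0966. Without GFP replicate 1 its log2 fold change was -0.11 (adjusted p = 0.0527, edgeR).

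RPA, the single-strand binding complex, rose in all 3 subunits, by 0.83 for RPA2, 0.60 for RPA1 and 0.21 for RPA3 on the log2 scale. RPA1 had 1103, 1613 and 1522 normalized counts in GFP and 2046, 2265 and 2069 in RBFOX1 libraries. GFP replicate 1 was well under the other GFP libraries, and without it the log2 fold change of RPA1 was 0.45 (adjusted p = 4.37e-08, edgeR). RPA3 had 457, 458 and 452 in GFP and 506, 555 and 515 in RBFOX1 libraries (adjusted p = 0.0167, edgeR), and its call was lost without RBFOX1 replicate 2 (0.0885) and under DESeq2 (0.0661). FEN1, the flap nuclease of Okazaki fragments, rose by 0.69, and LIG1, the ligase that seals them, rose from 180, 162 and 182 to 336, 340 and 300 (log2 fold change 0.88, standard error 0.0905, adjusted p = 8.70e-08, edgeR).

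The nucleotide supply genes held the strongest changes: 4 of 5 rose, with a median log2 fold change of 0.91. RRM2, the small subunit of ribonucleotide reductase that is made in S phase, had 468, 527 and 558 normalized counts in GFP and 2284, 2713 and 2153 in RBFOX1 libraries. The lowest RBFOX1 library was more than 3 times the highest GFP library, and RRM2 rose 4.60-fold (log2 fold change 2.21, standard error 0.0815, 95% interval 2.04 to 2.38, adjusted p = 1.74e-14, edgeR). RRM2 is annotated on chromosome 2 from 10120698 to 10211725 (GRCh38, plus strand). TK1, the thymidine kinase of the salvage pathway in cycling cells, had 245, 283 and 279 in GFP and 1038, 1121 and 1035 in RBFOX1 libraries, a 3.96-fold rise (log2 fold change 2.001, standard error 0.0734, adjusted p = 1.68e-14, edgeR). The 2 genes kept log2 fold changes of 2.11 to 2.29 (RRM2) and 1.93 to 2.03 (TK1) under all 13 alternatives.

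RRM1, the large subunit of ribonucleotide reductase, rose less, from 1586, 1586 and 1494 normalized counts to 2704, 2954 and 2679 (log2 fold change 0.84, standard error 0.0534, adjusted p = 7.26e-11, edgeR). TYMS, which makes thymidylate, had 227, 321 and 283 in GFP and 551, 516 and 472 in RBFOX1 libraries. GFP replicate 1 was the lowest, and without it the log2 fold change of TYMS was 0.76 in place of 0.91 (adjusted p = 8.26e-08, edgeR). DUT, the dUTPase, had 658, 645 and 631 in GFP and 691, 745 and 712 in RBFOX1 libraries. These did not overlap, but the log2 fold change of 0.15 fell just short of the threshold (95% interval 0.02 to 0.28, adjusted p = 0.0512, edgeR). DUT passed without GFP replicate 1 (adjusted p = 0.0234), without RBFOX1 replicate 1 (0.0329), with RLE scaling (0.0416) and with a stricter filter on low counts (0.0219).

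All 5 genes of chromatin assembly and fork protection rose, with a median log2 fold change of 0.88. UHRF1, which brings maintenance methylation to newly copied DNA, had 602, 537 and 577 normalized counts in GFP and 1340, 1164 and 1238 in RBFOX1 libraries (log2 fold change 1.11, standard error 0.0662, adjusted p = 2.57e-11, edgeR). TIMELESS, a fork protection factor, had 353, 434 and 412 in GFP and 865, 783 and 848 in RBFOX1 libraries (log2 fold change 1.07, standard error 0.0780, adjusted p = 5.78e-10, edgeR). For both genes the groups were far apart. CLSPN, the checkpoint adaptor claspin, rose by 0.88. The subunits of the histone chaperone CAF-1 rose less, CHAF1A from 396, 406 and 453 to 604, 655 and 615 (log2 fold change 0.59) and CHAF1B from 461, 511 and 526 to 557, 679 and 590 (log2 fold change 0.30, adjusted p = 0.00377, edgeR).

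Levels can be compared between genes only per length, so normalized counts were also divided by the length of each gene's canonical transcript in kilobases. On this scale the 53 genes in GFP cells spanned 23.4 for CLSPN to 1475 ± 36.7 (SD, n = 3) for PCNA. In RBFOX1 cells they spanned 42.2 for POLE2 and CLSPN to 1315 ± 52.4 for POLD2, with PCNA next at 1297 ± 61.5, and these top genes did not differ beyond their spread. MCM7 was the third in both conditions, at 851.2 ± 10.0 in GFP and 1202 ± 30.2 in RBFOX1 cells, followed by RRM1 at 495.0 ± 17.0 and 884.6 ± 48.4. TK1 moved from rank 23 (187.8 ± 14.7) to rank 5 (744.1 ± 34.2), and RRM2 from rank 25 (158.9 ± 14.1) to rank 7 (731.6 ± 90.0). MCM2 stood between them at 739.6 ± 18.4 in RBFOX1 cells, and TK1, MCM2 and RRM2 did not differ beyond their spread there. RFC1 went from rank 6 to rank 14 and ORC2 from rank 19 to rank 31 as other genes rose past them.

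**Figure D3:**
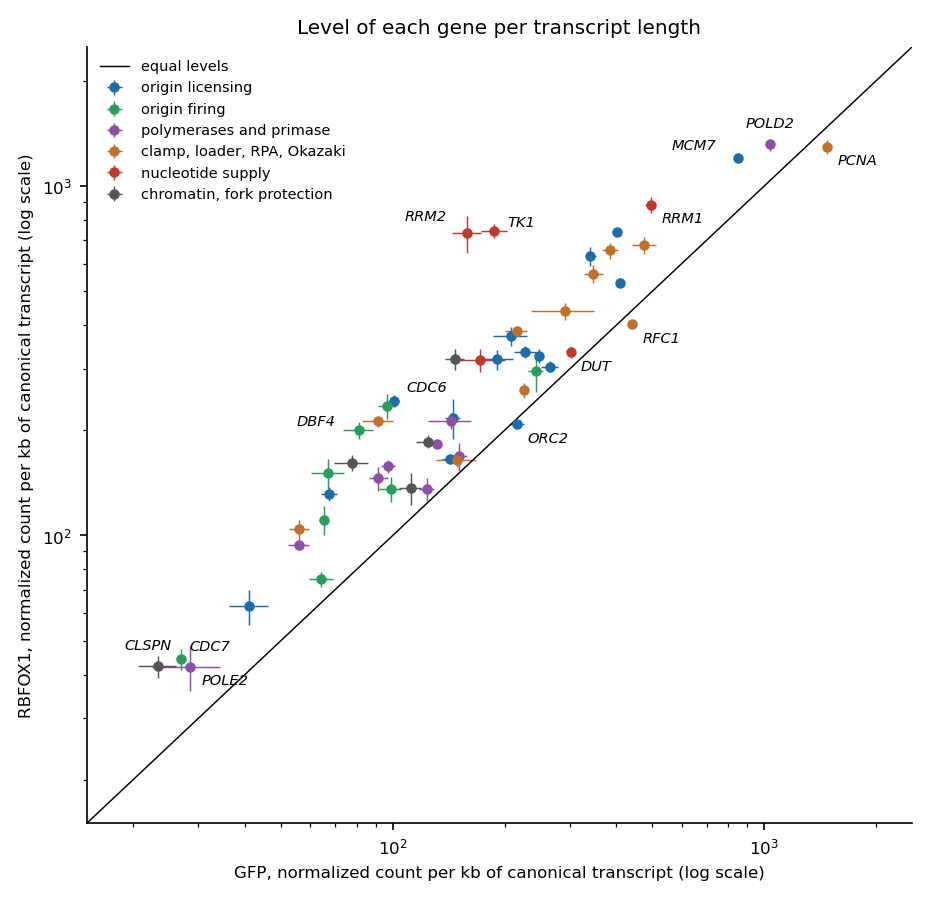
Mean level of each of the 53 genes in normalized counts per kilobase of canonical transcript, GFP on the horizontal and RBFOX1 on the vertical axis (both log scales), with bars for the SD over 3 libraries and a line of equal levels. RRM2 and TK1 stand farthest above the line, and PCNA, RFC1 and ORC2 lie below it.

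The ratios of normalized counts of 8 pairs of partner genes, chosen with the fold changes known, are given as a description, with exact two-sided permutation tests, for which 3 against 3 libraries cannot give a p below 0.10, and Benjamini-Hochberg adjustment over the 8 pairs. The ratio of RRM2 to RRM1 was 0.295, 0.332 and 0.374 in GFP and 0.844, 0.919 and 0.804 in RBFOX1 libraries, a factor of 2.57. The ratio of RRM2B, the alternative small subunit that is a p53 target, to RRM1 went the other way, from 2.16 ± 0.0483 to 0.666 ± 0.0328 (SD, n = 3). All RBFOX1 libraries lay above all GFP libraries in the former ratio and below them in the latter. DBF4 to CDC7 went from 3.42 ± 0.224 to 5.17 ± 0.625, CDT1 to its inhibitor GMNN from 0.980 ± 0.0131 to 1.29 ± 0.160, CHAF1A to CHAF1B from 0.839 ± 0.0381 to 1.03 ± 0.0613, and TIMELESS to its partner TIPIN from 2.95 ± 0.552 to 4.84 ± 0.208 (SD, n = 3). For these 6 pairs the groups did not overlap, and each reached the smallest p the exact permutation test allows (p = 0.10, adjusted 0.133), which is not below 0.05. POLE2 to POLE (0.111 ± 0.0261 to 0.0970 ± 0.0123) and PRIM1 to PRIM2 (0.674 ± 0.0969 to 0.718 ± 0.0365) overlapped (exact permutation p = 0.50, adjusted 0.50).

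**Figure D4:**
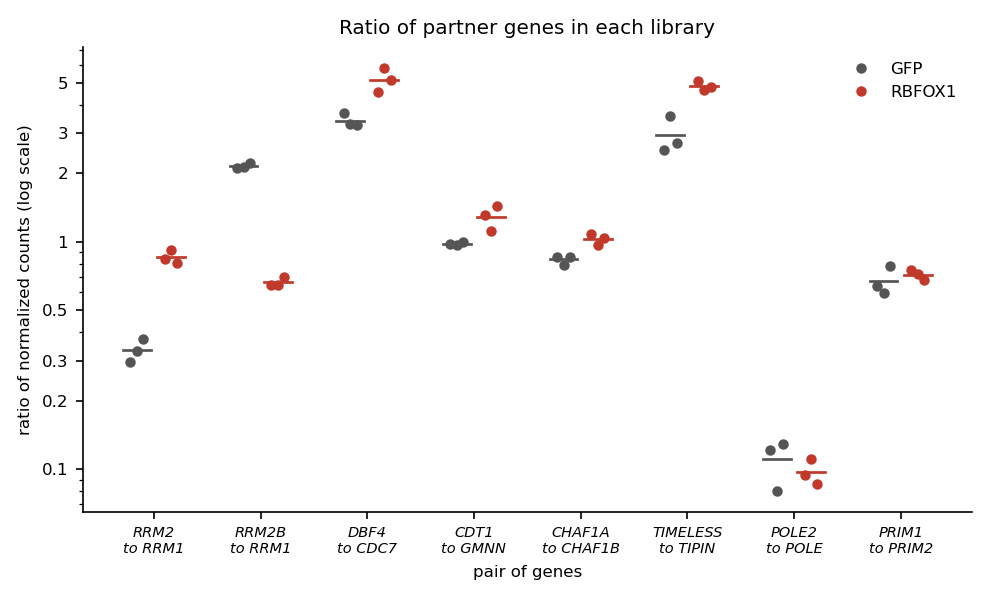
Ratio of the normalized counts of 8 pairs of partner genes in each library (log scale), with GFP in grey, RBFOX1 in red and lines for the means. RRM2 to RRM1 rises from 0.334 to 0.856 and RRM2B to RRM1 falls from 2.16 to 0.666, while POLE2 to POLE and PRIM1 to PRIM2 overlap.

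Beyond these 53 genes, a list of 54 other genes that act in replication, its nucleotide supply or its checkpoint was measured in the same fit. Of these, 33 rose (61.1%, beside 23.7% of all genes tested), 5 fell (9.26%, beside 22.9%) and 16 did not pass the test, and their median log2 fold change was 0.30. Among genes with a mean of at least 50, 30.4% were called higher and 33.4% lower. A log2 fold change of at least 1 was reached by 5 of this list (9.26%). This is close to the 8.23% of all genes tested, beside 5.87% of those with a mean of at least 50. TOP2A, the topoisomerase that decatenates copied DNA, rose from 2084 ± 19.6 to 5235 ± 317 (SD, n = 3; log2 fold change 1.33), ASF1B, a histone chaperone, by 1.27, and RECQL4, a helicase of replication initiation, by 1.25. The largest falls among well-measured genes were those of RRM2B, from 3355 ± 47.7 to 1848 ± 90.8 (SD, n = 3; log2 fold change -0.86), TK2, the mitochondrial thymidine kinase (-0.68), and MCM9, a helicase of recombination repair (-0.39). RRM2B and TK2 are counterparts of RRM2 and TK1 whose products serve DNA repair and mitochondrial DNA outside S phase. In both pairs, which were set side by side with these values known, the form of cycling cells rose and the other fell.

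TGCATG, the word that RBFOX proteins bind, was searched in the canonical 3′ UTRs (GENCODE release 44) on the transcript strand. It was present in 13 of the 53 genes (24.5%), beside 5131 of 14050 tested genes with an annotated 3′ UTR (36.5%). All 13 rose, with a median log2 fold change of 0.76, and of the 40 without it 33 rose and 2 fell, with a median of 0.57. In some of the alternative settings GINS4, with the word, and ORC3, POLE2, RPA3 and RFC1, without it, lost their calls. DUT, POLA1 and POLD3, also without it, gained one in some. Over all tested genes with an annotated 3′ UTR, 35.9% of those with the word and 27.1% of those without it were called higher. The 3′ UTRs with the word were longer, with a median of 2014 bases against 677.5, and over all tested genes the medians of log2 fold change were 0.06 with the word and -0.01 without it, at 2701 and 767 bases. The part of UTR length in this difference was not tested. Some sites of the 4 genes with the word that rose by a log2 fold change of at least 1 are shown with their neighbouring bases 5′ to 3′ on the transcript strand, the word in capitals and the coordinates those of the word in GRCh38.
RRM2 (TGCATG at chr2:10130986-10130991, plus strand): aagctgagacatTGCATGaaagatgatgag
TK1 (TGCATG at chr17:78174695-78174700, minus strand): tggacgctgcccTGCATGctgcccagccac
CDC6 (TGCATG at chr17:40304242-40304247, plus strand): ttctgtcaatgaTGCATGaagcagacttag
GINS2 (TGCATG at chr16:85678113-85678118, minus strand): aaacacttctgaTGCATGaaaaatgtgtga
GINS2 (TGCATG at chr16:85677903-85677908, minus strand): acttgggtctccTGCATGgaagccatcaca
The word began at base 1600 of the 2028 bases of the RRM2 3′ UTR, at base 59 of 668 in TK1 and at base 2241 of 2656 in CDC6. The GINS2 sites shown, which are not all that were found, began at bases 94 and 304 of 2014. DBF4, RFC3, CDC45, UHRF1 and TIMELESS, which also rose by a log2 fold change of at least 1, held none. Only this exact word in the canonical 3′ UTR was searched, so its lack is not the lack of an RBFOX site.

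Some of these values rest on reads that could be shared. Pseudogenes that carry the gene's name are annotated for 12 of the 53 genes, 8 of them for DUT and 3 each for RRM2, PCNA, RPA2 and DBF4, and reads that align equally well to several copies could have been left out of the counts of both. The counts on those pseudogenes came to at most 0.548% of the counts of the gene itself (DBF4), and to 0.397% for RRM2. For POLA2, PRIM1 and POLD1, 16.8%, 15.1% and 8.63% of the exon bases also belong to another gene on the same strand in GENCODE release 44, and pairs in such stretches count for neither gene where the annotation used for counting also held both.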

How the data were processed

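Stranded paired-end libraries were made from rRNA-depleted RNA of 6 samples of stable A172 cells (3 GFP, 3 RBFOX1). Whether the replicates of a construct came from separate transductions is not stated. If they did not, the p-values measure the spread between cultures of the same line. The authors used HISAT2 to align the reads (GRCh38) and HTSeq-count, in intersection-strict mode, to count them per Ensembl gene, and the deposited values are unnormalized read counts per gene. A deposited table of the authors' own DESeq2 comparison (fold changes and p-values) was not used.

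Between 52.0 and 61.9% of read pairs were counted on a gene, and the lines for uncounted pairs stayed out of library sizes. Precision is limited by 3 replicates and, in the shallowest library, by 3 counts being worth 5.44 normalized counts. Counts were scaled by TMM in edgeR 4.0.16 (R 4.3.3), and the conditions were compared with its two-sided quasi-likelihood test, condition being the only term. P-values were adjusted by the Benjamini-Hochberg method over the 20536 genes with at least 10 counts in all. The standard error of a log2 fold change was taken from the F statistic. The procedure was tested on simulated data with far fewer changed genes than were called here, so that test does not cover so broad a shift. Alternatives were DESeq2 (1.42.0), RLE and upper-quartile scaling, other filters on low counts, a replicate block, thinning to the smallest library and the omission of each library in turn. Same-numbered libraries of the conditions did not deviate together (correlations of -0.03, 0.02 and 0.00), so the numbers were not taken to pair them.

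The genes, role groups, pairs and lists were chosen with earlier results of these data known. Described in full were, in each role group, the 2 genes with the highest and the 2 with the lowest log2 fold change and every gene that fell or did not pass. Of the other replication genes, the 3 highest and 3 lowest with a mean of at least 50 were named. Other genes were picked after their values were seen. Coordinates, transcript lengths and 3′ UTRs came from GENCODE release 44 (GRCh38), later than the Ensembl release 87 used for counting. Not every site found is reported here.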

Additional observations from a re-analysis of the deposited data

How the results depend on the processing

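Under the 13 alternatives, 42 to 47 of the 53 genes were called higher, 8 to 10 of them by a log2 fold change of at least 1, and none changed direction. Of 689 values of single genes, 658 kept their side of the threshold, 24 lost the call (GINS4, RFC1, ORC3, POLE2 and RPA3) and 7 gained it (DUT, POLA1 and POLD3). The number called lower was 1 in place of 2 under DESeq2 and with a replicate block, since RFC1 lost its call, and lay between 1 and 2 with each library left out. The replicate block gave 45 higher and 1 lower, with a median log2 fold change of 0.60. With each library left out, the median log2 fold change of the 53 genes lay between 0.56 and 0.68, lowest without RBFOX1 replicate 2. Of the other replication genes, 29 to 35 were called higher and 5 lower. Where an omission left 2 libraries of a group, fewer samples estimated the spread. Apart from POLE2, these 8 genes differed by less than 20% between the conditions. The cause of the other differences between settings was not tested.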
